A study of Homo sapiens with 12 samples.

Results

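The 54 genes described here encode the machinery of autophagy, proteins of the lysosome and subunits of the vacuolar proton pump (V-ATPase). They were taken by symbol from a fixed list, which was drawn up with earlier results of these data known. Out of 57500 gene identifiers measured, 16402 genes had enough counts to be tested, and all 54 were among them. The cells were THP-1, a widely used line from a human monocytic leukaemia, and every group carries a non-target shRNA brought in by lentiviral particles. Cells were held in a gas chamber for 4 h in buffered medium, and LPS, the outer-membrane lipid of Gram-negative bacteria and the ligand of TLR4, was given at 2.5 µg/ml for the last 2 h. The 4 groups were 10% CO2 with LPS, 5% CO2 with LPS, 10% CO2 without LPS and 5% CO2 without LPS, with 3 poly(A)-selected libraries each. The question was how a raised CO2 level, with the pH buffered, alters gene expression in these cells with and without LPS.

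In macroautophagy, the ULK1 kinase complex with ATG13 and RB1CC1 starts a membrane that will enclose cargo, and the class III phosphatidylinositol 3-kinase complex (BECN1, ATG14, UVRAG) marks it with a lipid that WIPI proteins read. WIPI2 brings in ATG16L1, and a ubiquitin-like reaction through ATG7, ATG3, ATG12, ATG5 and ATG16L1 then attaches proteins of the ATG8 family, such as MAP1LC3B and the GABARAP proteins, to the membrane. Receptors such as OPTN and NBR1 tether ubiquitinated cargo to ATG8 proteins, and the closed vesicle fuses with a lysosome, whose hydrolases work at the acid pH set by the V-ATPase. Many lysosomal and some autophagy genes are targets of the MiT/TFE transcription factors TFEB, TFE3 and MITF, whose activity is controlled mainly by their position in the cell rather than by their RNA level.

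The RefSeq promoter table for GRCh38.p14 lists windows of 300 bases, 250 before and 50 after a start site, and 43 of the 54 members had an entry. The unmatched ones were ATP6V0E1, ATP6V1A, ATP6V1B2, ATP6V1C1, ATP6V1H, CTSB, CTSS, HEXA, LAMP2, RB1CC1 and UVRAG. The core of the site that MiT/TFE factors bind, CACGTG, is its own reverse complement and was searched in every window of a gene. It was present in 10 of the 43 members (23.3%) and in 2396 of 27305 genes of the table (8.78%). The longer TCACGTG, on either strand, was present in the same number of members and in 4.49% of all genes. Its holders were LAMP1 with 6 copies, CTSA, CTSD, GAA, MCOLN1, ATP6V0B, ATP6V0D1, ATP6V1G1, ATG3 and ATG14. A match is a description of the letters and not evidence of binding. Shown first are 3 of these promoters, with CACGTG in capitals: LAMP1 at chr13:113296989-113297288, CTSA at chr20:45891085-45891384 and ATP6V0B at chr1:43974710-43975009, all on the plus strand. The other 3 have no CACGTG in the window, like most matched members, and belong to genes that were lower at 10% CO2 in the results that follow: ULK1 at chr12:131894372-131894671, ATG13 at chr11:46617303-46617602 and GABARAPL1 at chr12:10212627-10212926, also on the plus strand. No link between the motif and the CO2 results was tested.
LAMP1: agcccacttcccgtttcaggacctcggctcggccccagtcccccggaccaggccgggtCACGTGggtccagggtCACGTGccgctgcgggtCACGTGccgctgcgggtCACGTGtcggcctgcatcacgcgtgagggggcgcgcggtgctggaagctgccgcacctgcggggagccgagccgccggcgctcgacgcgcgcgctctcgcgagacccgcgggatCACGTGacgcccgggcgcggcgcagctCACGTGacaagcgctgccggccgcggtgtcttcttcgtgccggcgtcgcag
CTSA: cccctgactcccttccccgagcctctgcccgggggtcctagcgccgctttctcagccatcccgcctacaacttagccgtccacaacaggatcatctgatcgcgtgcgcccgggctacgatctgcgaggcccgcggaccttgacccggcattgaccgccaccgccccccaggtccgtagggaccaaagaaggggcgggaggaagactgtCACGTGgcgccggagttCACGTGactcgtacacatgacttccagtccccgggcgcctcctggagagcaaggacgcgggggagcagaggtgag
ATP6V0B: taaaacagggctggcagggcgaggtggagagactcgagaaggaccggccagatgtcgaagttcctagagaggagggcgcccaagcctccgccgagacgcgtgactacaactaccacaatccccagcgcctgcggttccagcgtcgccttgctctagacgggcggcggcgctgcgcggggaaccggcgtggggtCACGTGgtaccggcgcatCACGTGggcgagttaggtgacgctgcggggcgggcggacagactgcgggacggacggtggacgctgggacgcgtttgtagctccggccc
ULK1: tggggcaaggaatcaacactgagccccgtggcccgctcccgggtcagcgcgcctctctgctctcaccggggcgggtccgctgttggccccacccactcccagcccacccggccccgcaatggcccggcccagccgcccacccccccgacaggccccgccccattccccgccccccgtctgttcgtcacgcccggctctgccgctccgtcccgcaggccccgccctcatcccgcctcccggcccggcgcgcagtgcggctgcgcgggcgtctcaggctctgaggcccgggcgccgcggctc
ATG13: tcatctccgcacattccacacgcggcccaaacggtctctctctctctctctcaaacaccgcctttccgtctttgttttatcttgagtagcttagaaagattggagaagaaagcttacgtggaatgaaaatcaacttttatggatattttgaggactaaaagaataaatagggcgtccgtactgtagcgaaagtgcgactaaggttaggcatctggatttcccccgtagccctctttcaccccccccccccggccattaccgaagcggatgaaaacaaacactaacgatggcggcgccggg
GABARAPL1: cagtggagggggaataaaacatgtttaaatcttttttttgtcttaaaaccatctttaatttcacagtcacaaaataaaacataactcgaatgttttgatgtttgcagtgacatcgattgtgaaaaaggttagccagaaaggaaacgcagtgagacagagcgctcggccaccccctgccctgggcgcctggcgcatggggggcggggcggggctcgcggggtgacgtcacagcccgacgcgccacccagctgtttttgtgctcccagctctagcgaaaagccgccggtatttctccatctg

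Total counts were 17.1 to 22.2 M per library. The mitochondrial genome gave 3.11% ± 0.95 of counts at 10% CO2 with LPS and 1.55% ± 0.249 at 5% CO2 with LPS, and in untreated cells 2.66% ± 0.563 at 10% CO2 against 1.57% ± 0.340 at 5% CO2 (SD, n = 3 each). All 12 of 12 monocyte markers were tested, none was at 0, and their summed level was 1080 to 1230 CPM (counts scaled to library size) at 10% CO2 with LPS, 1230 to 1450 at 5% CO2 with LPS, 1404 to 1505 at 10% CO2 and 1483 to 1815 at 5% CO2. The marker lists of epithelial, T and B, fibroblast and erythroid cells each summed to at most 4.31 CPM in any library, and HBA1 was at 0 throughout. The mitochondrial share and the monocyte marker level move with CO2 or LPS as the groups do, and their part in the results was not tested. In bulk RNA, fewer cells of a type and less RNA per cell cannot be told apart. The labels do not say whether libraries of a group are separate cultures. The p-values therefore rest on the spread among these libraries alone, part or all of which could be technical.

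On the TPM scale, which divides by the exon length of each gene, pump and lysosomal genes took the highest places. The order across genes depends in part on which exons are annotated. GABARAPL2, at rank 17, was the first autophagy gene, while ATP6V0A1 (12.8 TPM) and NPC1 (7.22 TPM) stood low. The highest mean levels over the 12 libraries were 338.1 TPM for ATP6V1F, 246.3 for ATP6V0B, 245.2 for ATP6V1G1, 228.5 for CTSZ and 225.7 for ATP6V0E1. The lowest were 5.47 TPM for GABARAPL1, 2.91 for ULK2, 1.496 for WIPI1 and 1.48 for MITF. Summed over all 54 genes the level was 3541 ± 193.6 TPM at 10% CO2 with LPS, 3865 ± 135.9 at 5% CO2 with LPS, 3790 ± 87.1 at 10% CO2 and 3973 ± 187.5 at 5% CO2 (SD, n = 3 each). Among LPS-treated cells the 3 libraries at 10% CO2 were below the 3 at 5% CO2 on this scale, and without LPS the groups overlapped. TPM lacks the scaling between libraries (TMM) that the tests use. With that scaling the median log2 change with CO2 among LPS-treated cells was −0.05 over the 54 genes. Of these, 22 were above 0 and 32 below, and the median over all tested genes was −0.01. A fall of the whole set is therefore not shown. The smallest member count in any library was 17, for WIPI1, and the spread between libraries of a group was 2.97% to 23.9% of the mean, with a median of 6.77% over the 54 genes.

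**Figure D1:**
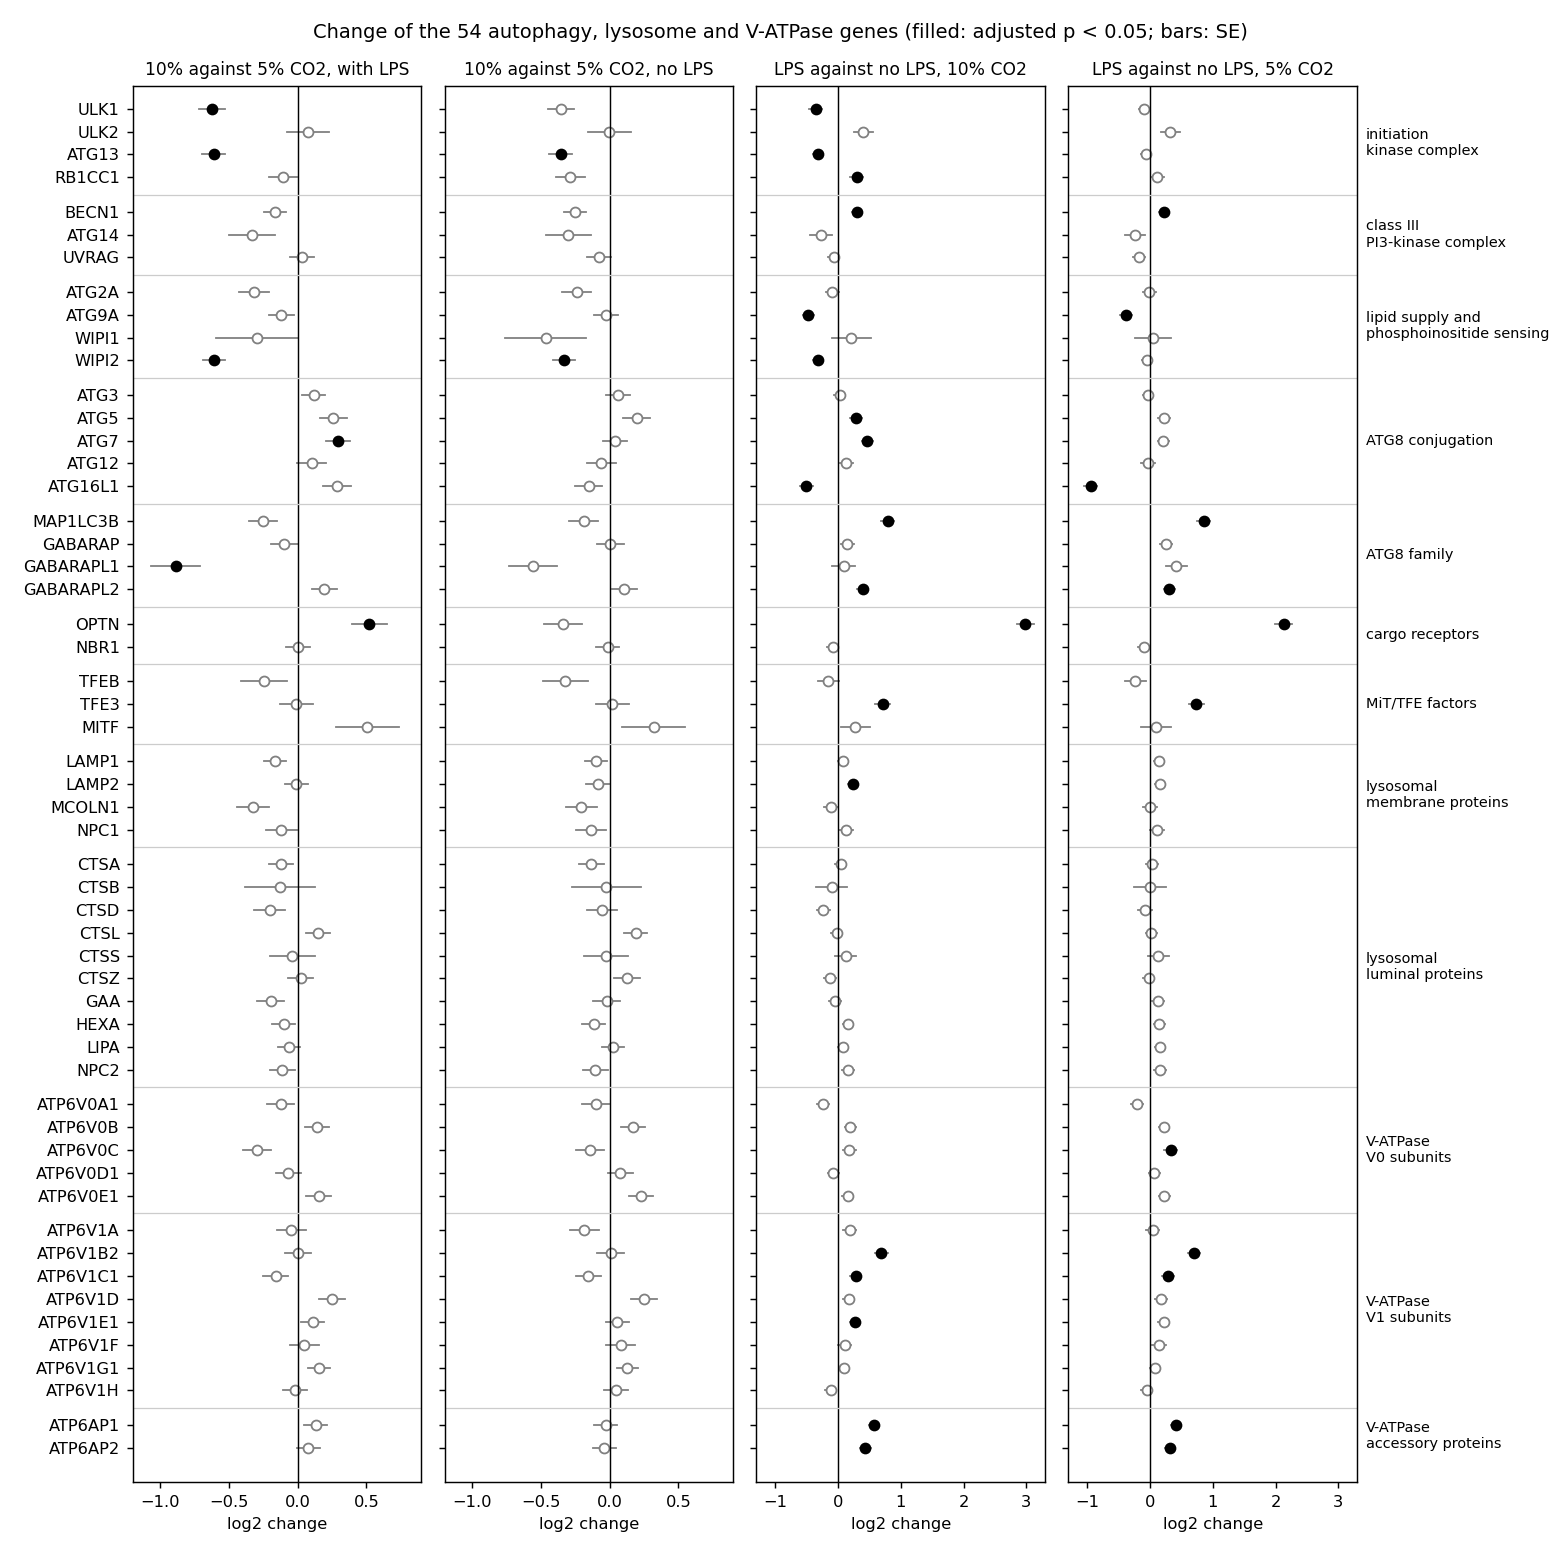
Log2 change of each of the 54 genes (rows, grouped by role) in the 4 pairwise comparisons, with filled points for adjusted p under 0.05 and bars for the standard error. ULK1, ATG13, WIPI2 and GABARAPL1 lie left of 0 in both CO2 panels, OPTN lies far right in both LPS panels, and the 10 lysosomal luminal proteins stay unfilled in all 4.

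Among LPS-treated cells, 4 autophagy genes were lower at 10% than at 5% CO2, which were ULK1 and ATG13 of the initiation complex, the lipid reader WIPI2 and the ATG8 protein GABARAPL1, and the cargo receptor OPTN and the conjugation enzyme ATG7 were higher. Of the 11 genes of the initiation, class III and lipid supply roles the other 8 were not called. A gene was called at an adjusted p under 0.05 (edgeR quasi-likelihood test, Benjamini-Hochberg over all genes tested). By that rule 6 of 54 members (11.1%) were called, against 8.75% of all tested genes, so the share itself is near the background, and all 6 are autophagy genes. Of the 22 autophagy genes 2 were called higher and 4 lower (of all tested genes, 4.29% were higher and 4.46% lower), while 0 of 15 V-ATPase genes, 0 of 14 lysosomal proteins and 0 of 3 MiT/TFE factors were called by edgeR, with 2, 1 and 1 of them at an unadjusted p under 0.05. In the same comparison 2 of the 12 monocyte markers were lower, CEBPA by 0.88 and CSF1R by 0.62 on the log2 scale, and 0 were higher. Where groups are said here or below not to overlap, this only describes the libraries. The share of all tested genes without overlap was not counted, so it adds no support for a gene that was not called.

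ULK1 (chr12:131894651-131923167, plus strand), the kinase that starts autophagy, had 34.8, 31.9 and 35.1 CPM at 10% CO2 with LPS, against 54.9, 50.6 and 51.4 CPM at 5% CO2 with LPS. All 3 libraries at 10% CO2 were below all 3 at 5%, and the change was −0.62 ± 0.0962 (log2, SE; adjusted p = 0.00176, edgeR). ATG13 (chr11:46617527-46674818, plus strand), the adaptor that holds the kinase complex together, had 89.7, 76.1 and 89.2 CPM at 10% CO2 with LPS and 135.1, 134.6 and 119.5 CPM at 5% CO2 with LPS. Its groups did not overlap either, and it fell by 0.61 on the log2 scale (SE 0.0845, adjusted p = 0.000945, edgeR). The other 2 genes of this complex were not called: RB1CC1 changed by −0.11 (adjusted p = 0.559) and ULK2 by 0.08 (adjusted p = 0.80). Summed over the 4 genes, the complex stood at 83.4 ± 9.38 TPM at 10% CO2 with LPS and 123 ± 8.47 TPM at 5% CO2 with LPS (SD, n = 3 each).

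WIPI2 (chr7:5190188-5233826, plus strand), the lipid reader that recruits ATG16L1, had 57.4, 59.1 and 58.4 CPM at 10% CO2 with LPS and 88.7, 89.2 and 88.7 CPM at 5% CO2 with LPS. The libraries of each group lay within 2 CPM of each other and far from the other group, with a log2 change of −0.61 ± 0.0795 (SE; adjusted p = 0.0007885, edgeR). ATG2A, which moves lipid into the growing membrane, changed by −0.32 without passing the threshold (adjusted p = 0.0693), and its groups did not overlap. The scramblase ATG9A changed by −0.12 (adjusted p = 0.454). In the class III kinase complex BECN1 changed by −0.16 with no overlap of the groups, ATG14 by −0.33 and UVRAG by 0.03, and none was called.

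GABARAPL1 (chr12:10212458-10223130, plus strand), a low-level member of the ATG8 family, had 5.97, 4.48 and 4.30 CPM at 10% CO2 with LPS, against 11.3, 8.06 and 7.82 CPM at 5% CO2 with LPS. Replicate 1 was the highest library in both groups, but all 3 at 10% CO2 stayed below all 3 at 5%. The log2 change was −0.89 ± 0.176 (SE; adjusted p = 0.00621, edgeR). Its 3 relatives were not called: MAP1LC3B changed by −0.25 (adjusted p = 0.140), GABARAP by −0.10 and GABARAPL2 by 0.19. Reads shared with near-identical copies such as GABARAPL3 and MAP1LC3B2 could not be assigned with certainty.

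In the conjugation reaction ATG7 rose. ATG7 (chr3:11272309-11557665, plus strand), the E1-like enzyme, had 55.1, 62.8 and 56.4 CPM at 10% CO2 with LPS and 45.2, 50.1 and 47.1 CPM at 5% CO2 with LPS. The groups did not overlap, and it rose by 0.29 ± 0.0868 (log2, SE; adjusted p = 0.0423, edgeR). All 5 conjugation genes had positive changes, with a median of 0.26 against −0.01 over all tested genes, but only ATG7 passed: ATG16L1 stood at 0.29 (adjusted p = 0.0811) and ATG5 at 0.26 (adjusted p = 0.0989), both with no overlap, and ATG3 and ATG12 at 0.12 and 0.10. The ATG7 call was kept in 3 of 12 fits that left out 1 library, with adjusted p up to 0.197. Of the exon bases of ATG7, 18.1% overlap VGLL4 on the opposite strand, and the strand setting of the counting is not given in the sources used here.

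OPTN, a receptor for damaged mitochondria and ubiquitinated bacteria, had 167.9, 182.5 and 152.3 CPM at 10% CO2 with LPS, against 113.4, 95.8 and 140.9 CPM at 5% CO2 with LPS. The lowest library at 10% CO2 stood above the highest at 5%. It rose 1.44-fold (log2 change 0.52 ± 0.128 SE, adjusted p = 0.0196, edgeR). NBR1, the other receptor among the members, changed by 0.00. The OPTN call was lost when 10% CO2 with LPS replicate 2 was left out (adjusted p = 0.103), or replicate 1 (0.0839) or 2 (0.0922) of 5% CO2 with LPS, while the calls of ULK1, ATG13, WIPI2 and GABARAPL1 were kept in 12 of 12 such fits. With a correction for GC content, chosen after seeing the data, 11 members were called, adding rises of ATP6AP1 (0.23) and ATP6V0B (0.26) and falls of RB1CC1 (−0.26), BECN1 (−0.20) and ATP6V1C1 (−0.29). Of all genes called in this comparison 49.0% were higher, and 34.2% when libraries were scaled by their totals alone.

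**Figure D2:**
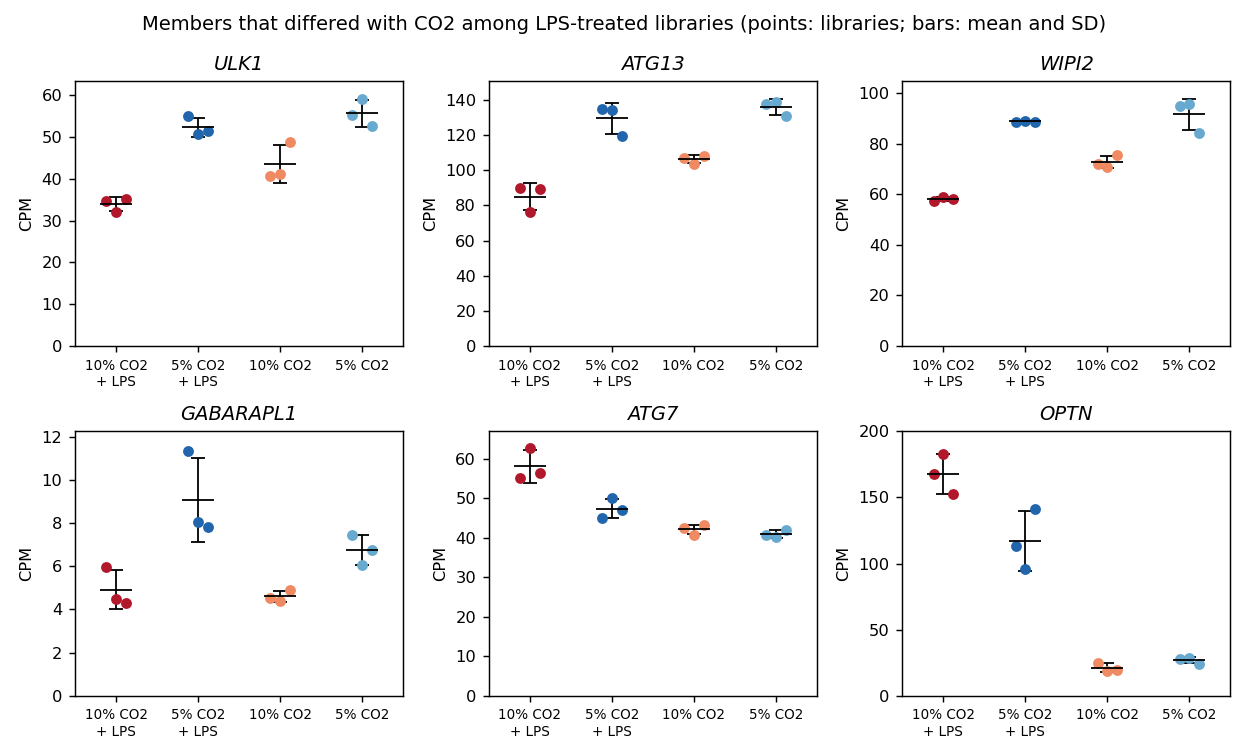
Level in CPM of the 6 members called for CO2 among LPS-treated cells, in each of the 12 libraries (points) with the mean and SD (bars), by group. For ULK1, ATG13, WIPI2 and GABARAPL1 all libraries at 10% CO2 lie below all at 5% CO2 at both LPS levels, and OPTN lies between 95.8 and 182.5 CPM with LPS and between 18.9 and 28.2 CPM without it.

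Without LPS, ATG13 and WIPI2 were lower at 10% than at 5% CO2, and ULK1 and GABARAPL1 were lower in every library without passing the threshold. The 2 calls are 3.70% of the members, against 1.46% of all tested genes (0.799% higher and 0.665% lower). ATG13 had 107.1, 103.6 and 108.4 CPM at 10% CO2 and 137.9, 139.1 and 130.8 CPM at 5% CO2, a log2 change of −0.35 ± 0.0838 (SE; adjusted p = 0.0425, edgeR). WIPI2 had 71.9, 70.9 and 75.5 CPM at 10% CO2 and 94.8, 95.6 and 84.5 CPM at 5% CO2, a change of −0.33 ± 0.0787 (adjusted p = 0.0425, edgeR). In both genes the groups were apart. ULK1 had 40.7, 41.0 and 48.9 CPM at 10% CO2 and 55.3, 59.0 and 52.6 CPM at 5% CO2 (−0.35 ± 0.0947, adjusted p = 0.0673, edgeR). GABARAPL1 had 4.51, 4.41 and 4.90 CPM at 10% CO2 and 7.46, 6.06 and 6.78 CPM at 5% CO2 (−0.56 ± 0.177, adjusted p = 0.113, edgeR). These 2 genes did not overlap between groups either.

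No other member was called by edgeR as used throughout among the untreated cells, although some changes were as large as those of ATG13 and WIPI2. WIPI1, the member with the fewest counts, changed by −0.47 (adjusted p = 0.436) with no overlap of the groups, and ATG14 by −0.30 (adjusted p = 0.3597) with overlap. BECN1 changed by −0.25 (adjusted p = 0.111) and RB1CC1 by −0.28 (adjusted p = 0.162), both with no overlap between the groups. OPTN changed by −0.34 (adjusted p = 0.217), with 24.96, 18.9 and 19.7 CPM at 10% CO2 and 27.9, 28.2 and 24.1 CPM at 5% CO2, and its groups overlapped. Over the 22 autophagy genes the median change was −0.17, with 17 below 0, against a median of −0.01 over all tested genes. A companion list of other autophagy machinery, with 29 genes tested, had a median of −0.02, with 11 above 0 and 18 below. A fall of autophagy genes in general is therefore not shown. The 15 V-ATPase genes had a median of 0.05 and the 14 lysosomal proteins of −0.07, with 0 calls in each. The calls of ATG13 and WIPI2 were each kept in 4 of 12 fits that left out 1 library, with adjusted p up to 0.235, and neither was called when only the 6 untreated libraries were fitted. ULK1 and BECN1 were also called with DESeq2 (adjusted p = 0.0185 and 0.0442), and, together with RB1CC1, with the GC correction, which called 5 members. Without 10% CO2 replicate 2, edgeR called 0 genes of the whole table in this comparison, against 240 with all libraries.

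Averaged over both LPS levels, with 6 libraries a side, 9 members were lower and 3 higher at 10% CO2 (22.2% of 54, against 16.8% of all tested genes, 8.69% lower and 8.06% higher). This contrast uses the same libraries as both comparisons above, so its calls are not separate evidence. GABARAPL1 fell by 0.72, ULK1 by 0.49, ATG13 by 0.48 and WIPI2 by 0.47 on the log2 scale, with adjusted p from 0.000127 to 0.00112 (edgeR), all kept in 12 of 12 fits with a library left out. ATG2A fell by 0.28, the cation channel gene MCOLN1 by 0.27, MAP1LC3B by 0.22, the proteolipid subunit gene ATP6V0C by 0.22 and BECN1 by 0.21. ATP6V1D, a stalk subunit of the pump, rose by 0.25, ATG5 by 0.23 and the V0 subunit gene ATP6V0E1 by 0.19. Of these 8, BECN1 and ATP6V1D were kept in 11 of 12 fits and ATG2A in 10, while MCOLN1, ATG5, MAP1LC3B, ATP6V0E1 and ATP6V0C were kept in 2 to 5. The adjusted p of the 8 with all libraries ran from 0.0159 to 0.0498 (edgeR). For ATP6V0C, 57.5% of its exon bases are shared with another gene on the same strand, whose mean count was 0.58.

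The test of the difference between the CO2 effects at the 2 LPS levels, which equals the difference between the LPS effects at the 2 CO2 levels, called 0 of 54 members and 0.0244% of all tested genes. With edgeR 4 members had an unadjusted p under 0.05, and DESeq2 called 1, OPTN. OPTN had an interaction of 0.86 (log2; 95% interval 0.49 to 1.23, adjusted p = 0.162, edgeR): its CO2 change was 0.52 with LPS and −0.34 without. With DESeq2 its adjusted p was 0.0109, and with edgeR it was 0.0260 when 5% CO2 with LPS replicate 3 was left out and 0.0381 when 10% CO2 replicate 1 was. ATG16L1 had 0.44 (adjusted p = 0.569), WIPI2 −0.28 (0.755), ULK1 −0.27 (0.845), ATG13 −0.26 (0.816) and GABARAPL1 −0.33 (0.930). A larger fall of WIPI2, ULK1, ATG13 and GABARAPL1 with LPS than without it was therefore not shown.

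LPS changed more of the members than CO2 did, and the autophagy receptor OPTN most of all. At 10% CO2, 14 members were called higher and 5 lower with LPS (35.2% of 54, against 35.2% of all tested genes, 16.6% higher and 18.6% lower). At 5% CO2, 10 were higher and 2 lower (22.2%, against 24.9% of all tested genes, 11.8% higher and 13.1% lower). Both shares are at the background. Each library enters 1 LPS comparison and 1 CO2 comparison, so the LPS and CO2 results share libraries. Scaling by library totals alone, in place of TMM, moved the median of all genes to −0.24 at 10% CO2 and −0.19 at 5% CO2, and only 21.0% and 21.7% of all called genes were then higher, against 47.2% and 47.4% with TMM. The LPS changes that follow are therefore relative to the typical gene.

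OPTN (chr10:13099449-13138308, plus strand) had 167.9, 182.5 and 152.3 CPM with LPS and 24.96, 18.9 and 19.7 CPM without at 10% CO2, and 113.4, 95.8 and 140.9 CPM with LPS and 27.9, 28.2 and 24.1 CPM without at 5% CO2. Every LPS library stood far above every untreated one. It rose 7.91-fold at 10% CO2 (log2 change 2.98 ± 0.141 SE, adjusted p = 1.10e-11, edgeR) and 4.37-fold at 5% CO2 (2.13 ± 0.137, adjusted p = 1.25e-09, edgeR). NBR1 changed by −0.09 and −0.10 and was not called. The promoter of OPTN is printed because this was the largest change of any member. The window shown is the upstream one of 2 listed, at chr10:13099832-13100131 on the plus strand, and the capitals mark 2 overlapping matches to a pattern of NF-kappaB sites, GGGAA followed after any 3 bases by CC, 12 and 11 bases before the start.
OPTN: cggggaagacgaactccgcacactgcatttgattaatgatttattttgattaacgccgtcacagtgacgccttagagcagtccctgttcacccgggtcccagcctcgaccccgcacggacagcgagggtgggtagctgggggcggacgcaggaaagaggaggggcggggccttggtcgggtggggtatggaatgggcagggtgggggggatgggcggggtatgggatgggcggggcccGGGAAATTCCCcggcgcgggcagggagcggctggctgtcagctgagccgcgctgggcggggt
The pattern was chosen after that sequence had been seen. On either strand it was present in 6 of 43 members (OPTN, TFE3, TFEB, MITF, BECN1 and LIPA, 13.95%) and in 2262 of 27305 genes (8.28%). The match in OPTN was thus fixed in advance, and a match is not evidence of binding.

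In the ATG8 family LPS raised MAP1LC3B and GABARAPL2. MAP1LC3B (chr16:87383995-87404779, plus strand), the protein most used to follow autophagosomes, had 99.0, 78.1 and 86.95 CPM with LPS and 57.4, 47.8 and 47.4 CPM without at 10% CO2, and 113.6, 101.2 and 99.9 CPM with LPS and 62.6, 52.8 and 58.2 CPM without at 5% CO2. The LPS libraries were all above the untreated ones. It rose by 0.79 ± 0.106 at 10% CO2 and by 0.86 ± 0.106 at 5% CO2 (log2, SE; adjusted p = 8.94e-06 and 4.88e-06, edgeR). GABARAPL2 rose by 0.39 and 0.31 (adjusted p = 0.00197 and 0.0167, edgeR), with 65.0 to 75.7 CPM with LPS against 50.6 to 56.4 CPM without at 10% CO2 and 58.9 to 67.1 CPM against 49.1 to 51.2 CPM at 5% CO2, and lost both calls when libraries were scaled by totals. The call at 5% CO2 was kept in 9 of 12 fits with a library left out. GABARAP changed by 0.15 and 0.25 and GABARAPL1 by 0.09 and 0.42, and edgeR as used throughout called none of these. At 5% CO2 GABARAP was called by DESeq2 (0.27, adjusted p = 0.0492) and with the replicate block (adjusted p = 0.0461), and GABARAPL1 with the block (0.41, adjusted p = 0.0387).

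ATG16L1 and ATG9A were the members lower with LPS at both CO2 levels. ATG16L1 (chr2:233210051-233295674, plus strand), which places the conjugation complex on the membrane, had 24.4, 25.2 and 24.9 CPM with LPS and 37.3, 33.0 and 35.5 CPM without at 10% CO2, and 20, 20.2 and 20.8 CPM with LPS and 42.8, 40.4 and 34.3 CPM without at 5% CO2. The LPS libraries were the lower ones throughout and nearly equal within a group. It fell by 0.51 at 10% CO2 (SE 0.0992, adjusted p = 0.000526, edgeR) and by 0.95 at 5% CO2 (SE 0.100, adjusted p = 6.67e-07, edgeR). ATG9A (chr2:219209772-219229717, minus strand) had 52.1, 48.4 and 50.8 CPM with LPS and 64.9, 68.5 and 76.8 CPM without at 10% CO2, and 59.0, 53.4 and 51.8 CPM with LPS and 75.6, 71.3 and 67.2 CPM without at 5% CO2. Its groups did not overlap, and it fell by 0.47 and 0.38 (adjusted p = 0.000449 and 0.00396, edgeR). Of its exon bases 34.9% are shared with ABCB6 on the same strand, whose mean count was 21.6 against 1242 for ATG9A.

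Of the other conjugation and kinase genes, BECN1 was called at both CO2 levels and the rest at 1 level or not at all. At 10% CO2 ATG7 rose by 0.46 (adjusted p = 0.000351, edgeR) and ATG5 by 0.29 (adjusted p = 0.0264, edgeR) with LPS, against changes of 0.21 and 0.22 at 5% CO2 that edgeR did not call. DESeq2 did call ATG7 at 5% CO2 (0.23, adjusted p = 0.0486). ULK1, ATG13 and WIPI2 fell by 0.36, 0.32 and 0.32 with LPS at 10% CO2 (adjusted p = 0.00660, 0.00556 and 0.00380, edgeR), against −0.09, −0.07 and −0.04 at 5% CO2. The libraries at 10% CO2 with LPS used here are the ones in which these 3 genes were also below 5% CO2. RB1CC1 rose by 0.29 at 10% CO2 (adjusted p = 0.0336, edgeR), against 0.12 at 5%. With a library left out, the calls at 10% CO2 were kept in 12 of 12 fits for ATG7, ULK1 and WIPI2, in 11 for ATG13, in 9 for ATG5 and in 8 for RB1CC1. BECN1, the scaffold of the class III complex, had 84.3, 83.2 and 84.7 CPM with LPS and 71.0, 70.4 and 62.5 CPM without at 10% CO2 and rose by 0.31 there (adjusted p = 0.00488, edgeR) and by 0.22 at 5% CO2 (adjusted p = 0.0457, edgeR), where 3 of 12 fits with a library left out kept the call. With the replicate number as a block, 22 members were called at 10% CO2 and 38.9% of all tested genes, against 19 members and 35.2% of genes without it, with ULK2 (0.41, adjusted p = 0.0410), ATP6V0A1 (−0.23, adjusted p = 0.0298) and CTSD (−0.24, adjusted p = 0.0462) added. None of these genes was called for a difference between the CO2 levels in its LPS change. With a correction for GC content, added after seeing the data, the calls of ULK1, ATG5 and RB1CC1 at 10% CO2 were lost, with changes of −0.13, 0.16 and 0.12.

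**Figure D3:**
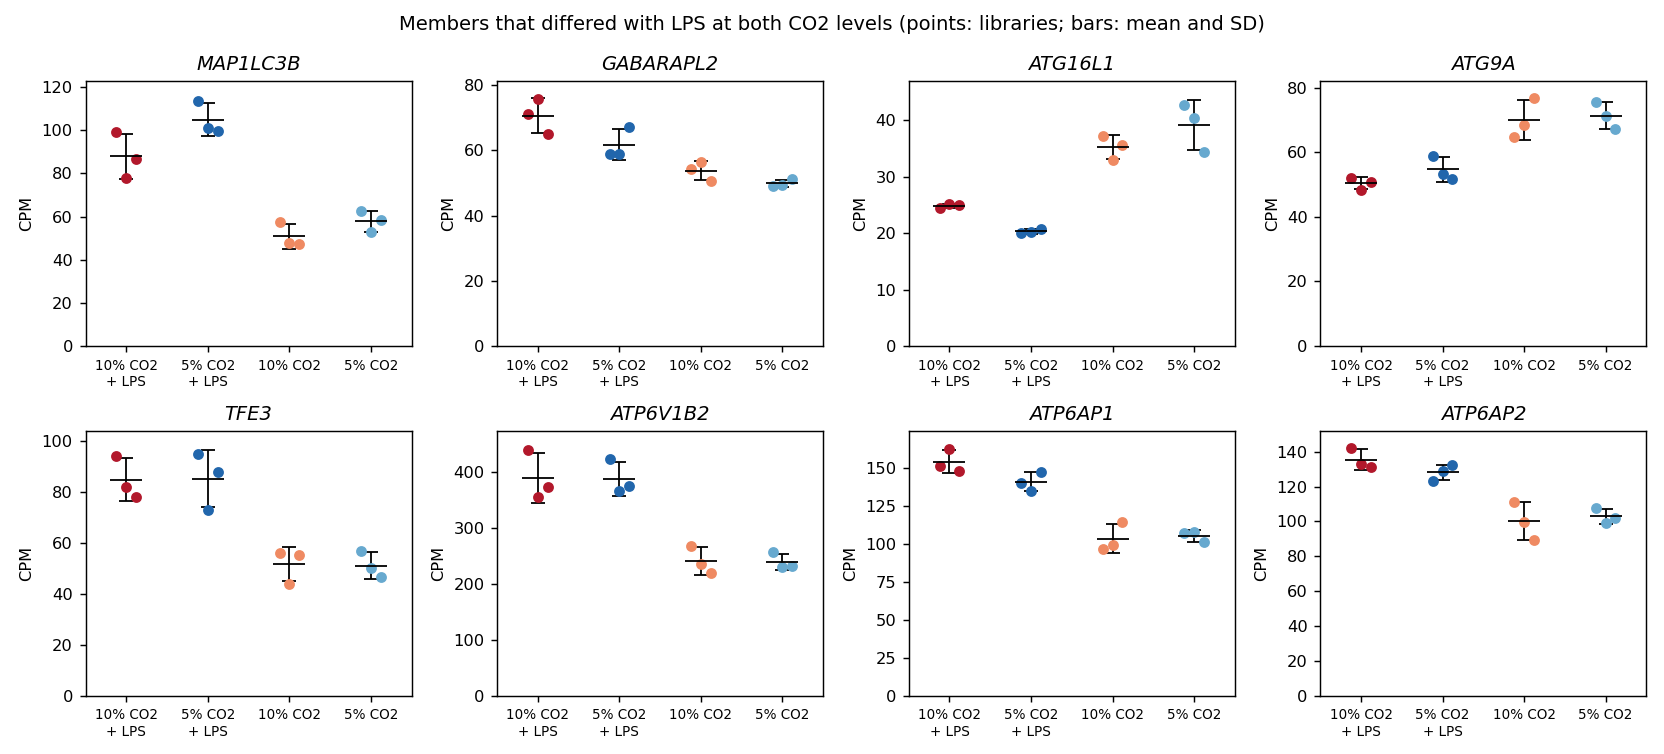
Level in CPM of 8 members called for LPS at both CO2 levels, in each of the 12 libraries (points) with the mean and SD (bars), by group. ATG16L1 and ATG9A are lower in the 6 LPS libraries, and the other 6 genes are higher in them, with ATP6V1B2 at 355.1 CPM or more with LPS and 268.6 CPM or less without it.

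Of the 3 MiT/TFE factors, TFE3 rose with LPS at both CO2 levels, and by edgeR as used throughout TFEB and MITF were called in no comparison and TFE3 in none for CO2. Under other settings TFEB was called lower at 10% CO2 averaged over LPS (−0.27, adjusted p = 0.0259 with the replicate block, and −0.28, adjusted p = 0.00710 with no low-count filter), and MITF higher (0.53, adjusted p = 0.0205) without 10% CO2 replicate 3, all by edgeR. TFE3 (chrX:49028726-49043486, minus strand) had 94.3, 82.0 and 78.0 CPM with LPS and 56.1, 44.0 and 55.3 CPM without at 10% CO2, and 94.9, 72.8 and 88.0 CPM with LPS and 56.9, 50.1 and 46.5 CPM without at 5% CO2. LPS libraries were the higher ones at each CO2 level, and it rose by 0.71 ± 0.119 and 0.74 ± 0.119 (log2, SE; adjusted p = 0.000112 and 0.000111, edgeR). Its change with CO2 was −0.01 with LPS and 0.02 without. TFEB had 44.8, 41.0 and 39.7 CPM at 10% CO2 with LPS, 58.1, 46.0 and 44.6 at 5% CO2 with LPS, 53.0, 37.5 and 49.1 at 10% CO2 and 72.9, 57.2 and 44.3 at 5% CO2. Its groups overlapped in every pairwise comparison, and replicate 1 was the highest library in each group (CO2 change −0.24 with LPS, adjusted p = 0.389, and −0.32 without, adjusted p = 0.332, edgeR).

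MITF, at the foot of the TPM order, had 3.19, 4.42 and 3.91 CPM at 10% CO2 with LPS, 2.91, 2.89 and 2.31 at 5% CO2 with LPS, 3.83, 3.60 and 2.12 at 10% CO2 and 2.76, 2.04 and 2.79 at 5% CO2. Among LPS-treated cells every library at 10% CO2 was above every one at 5% CO2, but the change of 0.51 ± 0.232 was not called (adjusted p = 0.181, edgeR). Without LPS the groups overlapped, with a change of 0.32 (adjusted p = 0.504).

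The lysosomal proteins had few calls for LPS. Of the 14, 1 was called at 10% CO2 (7.14%) and 0 at 5% CO2, against 35.2% and 24.9% of all tested genes. For CO2, 0 were called with LPS and 0 without, against 8.75% and 1.46% of all tested genes, shares at which 14 genes can easily give 0. Averaged over LPS, 1 was called for CO2 (7.14%, against 16.8%). Of the 10 luminal proteins, which are the cathepsins CTSA, CTSB, CTSD, CTSL, CTSS and CTSZ, the hydrolases GAA, HEXA and LIPA and the cholesterol carrier NPC2, 0 were called by edgeR as used throughout in any of the 6 contrasts, with 1 at an unadjusted p under 0.05 for CO2 without LPS and 0 for CO2 with LPS. Other settings called some of them. For CO2 averaged over LPS, DESeq2 called CTSL higher (0.17, adjusted p = 0.0435), as did edgeR with the replicate number as a block (0.17, adjusted p = 0.0469). For LPS at 10% CO2, where the replicate numbers may pair the libraries, the block called CTSD lower (−0.24, adjusted p = 0.0462, edgeR). With the GC correction, GAA was called higher with LPS at 10% CO2 (0.18) and 5% CO2 (0.22) and CTSA at 10% CO2 (0.21), while with totals scaling GAA was called lower at 10% CO2 (−0.26), together with CTSD, CTSL and CTSZ. Their log2 changes with CO2 ran from −0.20 to 0.15 with LPS and from −0.13 to 0.19 without, and their summed level was 856 ± 87.7 TPM at 10% CO2 with LPS, 972 ± 66.5 at 5% CO2 with LPS, 1052 ± 44.9 at 10% CO2 and 1094 ± 82.3 at 5% CO2 (SD, n = 3 each). Of the 4 membrane proteins, LAMP2 rose by 0.24 with LPS at 10% CO2 (adjusted p = 0.0307, edgeR), a call kept in 7 of 12 fits with a library left out and lost with the GC correction (0.03). LAMP1 changed by 0.08 and 0.15 with LPS, the cholesterol exporter NPC1 by 0.13 and 0.11, and MCOLN1 by −0.12 and 0.00. Over the 14 lysosomal genes the median LPS change was 0.06 at 10% CO2 and 0.12 at 5% CO2, but −0.16 and −0.05 when libraries were scaled by totals, so no direction is given for them.

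The 10 members with CACGTG in their promoter windows, whose LAMP1, CTSA and ATP6V0B windows are printed above, were called by edgeR as used throughout in none of the 4 pairwise comparisons. Of the 33 matched members without it, 17 were called in at least 1 and 16 were not, and of all tested genes 42% were called in at least 1. Other settings did call holders in these comparisons: the GC correction ATP6V0B, GAA and CTSA, and with the block also ATG3, ATG14 and LAMP1. Scaling by library totals called CTSD, GAA, MCOLN1, ATP6V0D1 and ATG14, and the replicate block CTSD and ATP6V0B. For CO2 averaged over LPS, MCOLN1 was called by edgeR as used throughout. The split thus depends on the setting. Most of the 10 are lysosomal or V-ATPase genes, and no test was made of this split.

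In the V-ATPase, LPS raised the catalytic sector subunit ATP6V1B2 and both accessory proteins at both CO2 levels. ATP6V1B2 (chr8:20197367-20226819, plus strand) had 440.4, 355.1 and 373.3 CPM with LPS and 268.6, 236.4 and 218.9 CPM without at 10% CO2, and 423.2, 366.6 and 374.8 CPM with LPS and 256.7, 231.0 and 232.1 CPM without at 5% CO2. The LPS and untreated libraries were well apart, and the change was 0.69 ± 0.0960 at each CO2 level (log2, SE; adjusted p = 1.36e-05 at 10% and 1.96e-05 at 5% CO2, edgeR). With CO2 it changed by 0.01 at both LPS levels. ATP6AP1, an assembly partner of the pump, had 151.1, 162.7 and 148.2 CPM with LPS and 96.7, 99.1 and 114.1 CPM without at 10% CO2, and 140.3, 134.7 and 147.2 CPM with LPS and 106.8, 108.1 and 101.0 CPM without at 5% CO2. Its groups did not overlap, and it rose by 0.58 and 0.42 (adjusted p = 2.01e-05 and 0.000816, edgeR). ATP6AP2, the (pro)renin receptor, rose by 0.43 and 0.32 (adjusted p = 0.000555 and 0.00953, edgeR), with 131.3 to 142.2 CPM against 89.6 to 111.4 CPM at 10% CO2 and 123.5 to 132.4 CPM against 99.2 to 107.5 CPM at 5% CO2.

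Of the other V1 subunits, ATP6V1C1 rose by 0.28 at both CO2 levels and ATP6V1E1 by 0.27 at 10% CO2, each lost with totals scaling and kept in 8 to 10 of 12 fits with a library left out. At 10% CO2 the GC correction ended both calls, with changes of 0.13 for ATP6V1C1 (adjusted p = 0.215) and 0.18 for ATP6V1E1 (adjusted p = 0.0683). At 5% CO2 ATP6V1E1 was called higher by DESeq2 (0.23, adjusted p = 0.0401). There edgeR also called it with RLE size factors (0.23, adjusted p = 0.0491) and with the replicate block (0.22, adjusted p = 0.0379). At 10% and 5% CO2 the remaining 5 V1 genes changed by −0.12 to 0.18 with no call by edgeR as used throughout. With the GC correction ATP6V1H was called lower at 10% CO2 (−0.22). Of the 5 V0 genes edgeR as used throughout called ATP6V0C alone, with a rise of 0.33 at 5% CO2 (adjusted p = 0.0220), kept in 8 of 12 such fits. The GC correction called ATP6V0C at 10% CO2 as well (0.42) and ATP6V0B at both CO2 levels (0.35 and 0.30). It also called ATP6V0A1 lower at both (−0.28 and −0.26). With the replicate block ATP6V0A1 was called lower at 10% CO2 (−0.23, adjusted p = 0.0298), and ATP6V0B (0.23, adjusted p = 0.0448) and ATP6V0E1 (0.23, adjusted p = 0.0331) higher at 5% CO2. Of all tested genes, 35.2% were called with LPS at 10% CO2 (16.6% higher, 18.6% lower) and 24.9% at 5% CO2 (11.8% higher, 13.1% lower). Over the 15 V-ATPase genes 5 were called higher and 0 lower at each CO2 level (33.3%), with medians of 0.18 and 0.22. Scaled by totals the medians were −0.04 and 0.04, with 3 higher and 3 lower at 10% CO2 and 2 higher and 1 lower at 5% CO2. ATP6V1B2, ATP6AP1, OPTN, MAP1LC3B and TFE3 stayed called higher under that scaling at both CO2 levels. As a sum, V1 subunits stood at 969 ± 50.2 TPM at 10% CO2 with LPS, 1014 ± 41.8 at 5% CO2 with LPS, 1006 ± 5.09 at 10% CO2 and 1020 ± 49.9 at 5% CO2, and V0 subunits at 630.2 ± 16.3, 673 ± 36.6, 684 ± 31.0 and 666 ± 42.9 TPM in the same order (SD, n = 3 each).

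**Figure D4:**
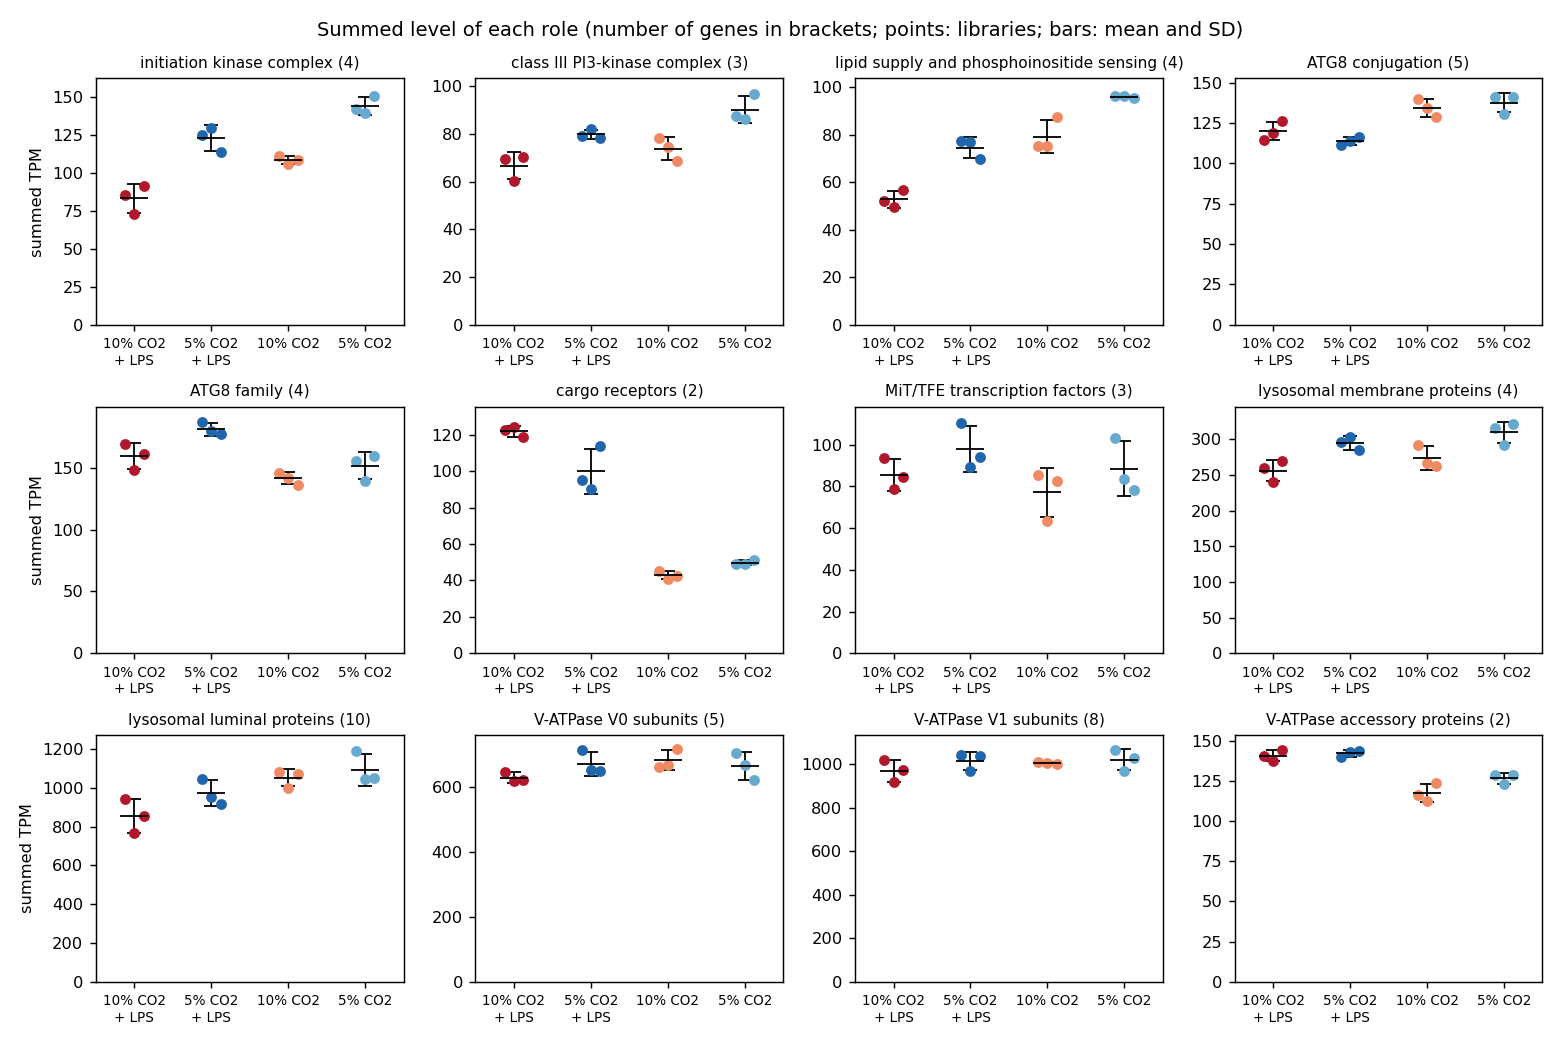
Summed TPM of the genes of each role (number of genes in brackets) in the 12 libraries (points) with the mean and SD (bars), by group. The initiation complex and the lipid supply group are lowest at 10% CO2 with LPS (83.4 and 52.8 TPM) and highest at 5% CO2 (144 and 95.9 TPM), and the cargo receptors are highest at 10% CO2 with LPS (122 TPM).

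A summed level weighs genes by abundance, and TPM lacks the TMM scaling of the tests, so the sum need not follow the called genes of a role. For LPS at 10% CO2 the V1 subunits had 3 members higher and 0 lower, yet their sum averaged 969 TPM with LPS and 1006 TPM without, and the class III complex, with BECN1 called higher, stood at 66.7 ± 5.59 TPM with LPS and 73.8 ± 4.74 TPM without at 10% CO2 and at 79.9 ± 1.95 and 90.04 ± 5.65 TPM at 5% CO2 (SD, n = 3 each). The conjugation genes stood at 120 ± 5.71 TPM at 10% CO2 with LPS, 114 ± 2.50 at 5% CO2 with LPS, 134 ± 5.49 at 10% CO2 and 138 ± 6.02 at 5% CO2. TPM is scaled by library totals and not by TMM. BECN1, the most abundant gene of its complex, averaged 84.03 CPM with LPS and 67.95 CPM without at 10% CO2, but 40.4 and 39.3 TPM. Lipid supply genes stood at 52.8 ± 3.59 TPM at 10% CO2 with LPS, 74.6 ± 4.35 at 5% CO2 with LPS, 79.2 ± 6.95 at 10% CO2 and 95.9 ± 0.412 at 5% CO2 (SD, n = 3 each). Cargo receptors stood at 122 ± 2.83, 99.8 ± 12.2, 42.8 ± 2.07 and 49.8 ± 1.28 TPM in the same order. The ATG8 family stood at 160 ± 10.5 TPM at 10% CO2 with LPS, 181 ± 5.36 at 5% CO2 with LPS, 142 ± 4.78 at 10% CO2 and 152 ± 10.9 at 5% CO2.

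Some members varied more by replicate number than by condition. CTSB, a cysteine cathepsin (chr8:11842524-11869448, minus strand), had 259.9, 167.6 and 175.4 CPM at 10% CO2 with LPS, 275.9, 194.2 and 189.2 at 5% CO2 with LPS, 271.3, 176.9 and 199.7 at 10% CO2 and 282.1, 199.8 and 176.6 at 5% CO2. Replicate 1 was the highest library in all 4 groups, at 1.44 to 1.52 times the mean of replicates 2 and 3, while the group means differed by at most 1.09-fold. CTSS, an MHC class II processing cathepsin, had 238.2, 183.9 and 172.7 CPM, then 231.5, 196.8 and 183.0, then 218.8, 182.3 and 146.7, then 221.1, 171.1 and 165.2 CPM in the same order of groups. Its replicate 1 stood 1.22 to 1.34 times above the mean of the other two, and that of TFEB 1.11 to 1.44 times. These genes were singled out after their values had been seen, and replicate 1 was the highest library in all 4 groups for 9 of the 54 members. The labels do not say what a replicate number stands for.

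**Figure D5:**
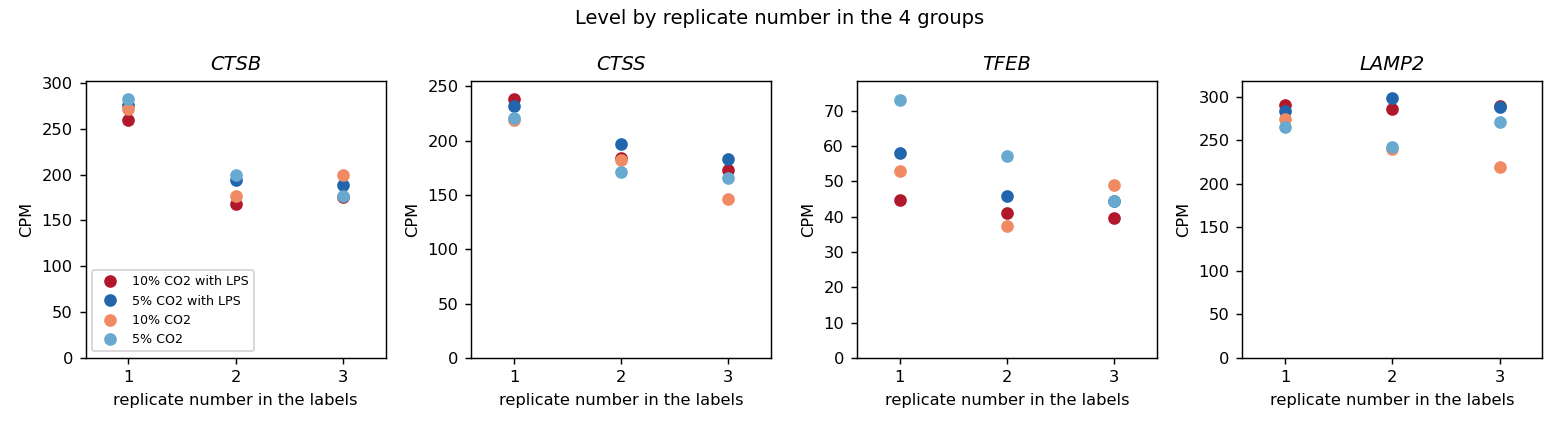
Level in CPM of CTSB, CTSS, TFEB and LAMP2 by replicate number, with 1 point per group. Replicate 1 lies above replicates 2 and 3 in all 4 groups for CTSB, CTSS and TFEB, and LAMP2, between 219.0 and 298.8 CPM, shows no such step.

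Other genes of the same pathways were counted from companion lists, by the same fit. Without LPS, 10% CO2 gave 0 calls in all 7 lists. Among LPS-treated cells it raised 2 and lowered 1 of 29 tested genes of other autophagy machinery: EPG5, a tether for fusion with the lysosome, rose by 0.65 and EI24 by 0.28, and RUBCN, an inhibitor of the class III complex, fell by 0.40. Of 13 other selective receptors, RETREG1, a receptor for endoplasmic reticulum, rose by 0.77 and BNIP3L, a mitochondrial receptor, fell by 0.49. Of 28 genes of mTORC1 and Rag control, 2 rose: FNIP2, a partner of folliculin, by 1.19 and SESN1 by 0.36. Of 17 other V-ATPase genes, DMXL2, an assembly factor of the pump, rose by 1.28 (adjusted p = 0.000240, edgeR). Among the lysosomal lists PLA2G15 (1 of 44 hydrolases) fell by 0.71. Of 24 other lysosomal membrane genes, SLC17A5 fell by 0.59 and TPCN2 by 0.40, and MCOLN2 rose by 0.52. The share of called genes in these 6 lists was 10.3% for machinery, 15.4% for receptors, 7.14% for mTORC1 and Rag control, 5.88% for V-ATPase, 2.27% for hydrolases and 12.5% for membrane genes, against 8.75% of all tested genes. The list of lysosomal sorting and fusion genes, counted among the 7 above, is left out here and in the LPS results that follow.

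With LPS several companion genes changed at both CO2 levels. LAMP3, a lysosomal membrane protein of activated dendritic cells, with a mean of 27 counts per library, rose by 3.34 at 10% CO2 and 2.91 at 5% CO2, and DMXL2 by 2.97 and 1.97. SQSTM1, the p62 receptor, rose by 1.62 and 1.67, RETREG1 by 1.41 and 1.09, NCOA4, the ferritin receptor, by 1.18 and 0.91, and FNIP2 by 2.01 and 1.26. The cathepsin CTSC rose by 1.048 and 1.105, while PLA2G15 fell by 1.69 and 0.99, CLN3 by 0.94 and 1.24 and the protease ATG4C by 1.15 and 0.64. Other autophagy machinery had 6 higher and 7 lower at 10% CO2 and 4 higher and 2 lower at 5% CO2, and other receptors 4 higher and 3 lower at 10% CO2 and 4 higher and 0 lower at 5% CO2. Other hydrolases had 5 higher and 6 lower at 10% CO2 and 3 higher and 1 lower at 5% CO2, and other lysosomal membrane genes 5 higher and 6 lower, and 3 higher and 3 lower. Genes of mTORC1 and Rag control had 7 higher and 5 lower at 10% CO2 and 4 higher and 3 lower at 5% CO2, and other V-ATPase genes 2 higher and 2 lower, and 2 higher and 0 lower. As shares of the genes tested these are 44.8% and 20.7% for machinery, 53.8% and 30.8% for receptors, 25% and 9.09% for hydrolases, 45.8% and 25% for membrane genes, 42.9% and 25% for mTORC1 and Rag control and 23.5% and 11.8% for V-ATPase, against 35.2% and 24.9% of all tested genes.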

How the data were processed

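Gene counts were deposited as 1 table per library, raw read counts per Ensembl gene made by the authors with featureCounts (Subread 1.5.2) after Trimmomatic 0.36 and STAR 2.5.2b on GRCh38, per the submitters' processing notes. For the strand setting, the multi-mapping rule and the annotation release, each is not given in the sources used here. Groups and replicate numbers came from the sample titles. Of 57500 identifiers 40907 (71.1%, 99.1% of counts) were paired with a symbol. The members, their roles and the companion lists were chosen with earlier results of these data known.

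Counts were tested in R 4.3.3 with edgeR 4.0.16 (low counts removed by filterByExpr, TMM, robust quasi-likelihood fit of 4 group means to all 12 libraries, Benjamini-Hochberg over 16402 genes, called at adjusted p under 0.05), tested on simulated data first. Values in CPM are TMM-normalized, and TPM was computed from counts and exon lengths. Full values were given for members called in a pairwise comparison and for TFEB, TFE3 and MITF, and the rest by range and count. Of the companion lists, at most the 3 called genes with the smallest adjusted p per list, direction and comparison were named. A result for 1 companion gene is not reported here. No libraries of a group agreed within sampling noise (their chi-square over its degrees of freedom was 8.05 to 26.2), so none were merged.

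Same-numbered libraries were compared by the correlation of their deviations from the group means. Only for LPS at 10% CO2 did every pair exceed 0.1 (0.402, 0.356 and 0.200), so there the numbers may pair the libraries. For LPS at 5% CO2 the correlations were 0.504, 0.0911 and 0.247, so the cut of 0.1 separates these comparisons narrowly. The main fit uses no pairing, and the block is a replicate effect shared by all 12 libraries. Alternatives were RLE size factors, library totals, no low-count filter, DESeq2 1.42.0, only the compared groups, a replicate block, each library left out, and, added after seeing the data, a GC correction (loess span 0.4) with and without the block.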

Additional observations from a re-analysis of the deposited data

How the results depend on the processing

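No member call changed direction under any alternative run. Of 51 member calls over the 6 contrasts, RLE size factors kept 50, DESeq2 51, the replicate block 51, library totals 36, no low-count filter 39, the GC correction 41, the GC correction with the block 44, and leaving out 1 library 38 to 48, while fitting only the compared groups kept 36 of 39 pairwise calls. For CO2 without LPS, where 2 members were called, the count was 1 with library totals, 1 with no filter, 0 with only the compared groups, 4 with the replicate block (adding ULK1 and GABARAPL1), 4 with DESeq2, 5 with the GC correction and 10 with the GC correction and block. For CO2 with LPS, 6 members were called, and 11 and 14 with the GC correction without and with the block. GC correction with the block gave 20 in place of 12 for LPS at 5% CO2 and 23 in place of 12 for CO2 averaged over LPS, while calls over all genes went to 5878 with it against 4092 and to 4690 against 2748. The interaction gave 1 member (OPTN) in place of 0 with no filter (adjusted p = 7.42e-05) and with DESeq2. The cause of these shifts was not tested. Leaving out 1 library gave 0 to 3 members for CO2 without LPS, 4 to 7 with LPS, 15 to 21 for LPS at 10% CO2, 9 to 12 for LPS at 5% CO2, 0 to 1 for the interaction and 6 to 13 for the average.

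Over all genes, CO2 without LPS gave 240 calls, 71 with only the compared groups, 699 with the block, 655 with DESeq2 and 2022 with the GC correction and block, and 0, 1 and 4 without 10% CO2 replicate 2, 5% CO2 replicate 1 and 5% CO2 replicate 2. CO2 with LPS gave 1435 calls, 271 without 10% CO2 with LPS replicate 2 and 3000 with the GC correction and block, and the interaction 4 calls, with 1 to 108 under the alternatives. Apart from LPS at 10% CO2, not every same-numbered pair correlated above 0.1. The labels do not establish a pairing in any comparison, and the block is an alternative only. Over all pairs of groups the correlations were −0.290 to 0.504 (median 0.174) for the same number, against a median of −0.134 for different numbers, and the 6 pairs of replicate 1 had 0.237 to 0.504, a hint from the data and not from the design. The block added MAP1LC3B for CO2 with LPS (7 calls in all), and gave 17 calls for LPS at 5% CO2, 0 for the interaction and 16 for the average. Depth limits WIPI1, MITF, ULK2 and GABARAPL1, the members with the lowest levels, most.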
